A study of Mus musculus with 7 samples.

Results

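The 10 genes described here belong to the unfolded protein response and to the integrated stress response that overlaps with it. They are Hspa5, Xbp1, Ern1, Atf6, Atf4, Ddit3, Eif2ak3, Trib3, Ppp1r15a and Chac1, a list given by name, and all 10 were found among 49315 gene identifiers by matching identifiers to mouse gene symbols. RNA was sequenced from 7 libraries of primary mouse oligodendroglia derived from the brain of newborn pups of both sexes, of which 4 came from wildtype mice (control, Klf13_ctrl) and 3 from mice lacking the transcription factor Klf13 (knockout, Klf13_ko). Oligodendrocyte precursors were shaken off mixed glial cultures, depleted of microglia and kept in SATO medium under differentiating conditions for 6 days, a procedure shared by both groups. Klf13 is missing from all cells of these knockout mice, and the labels call the libraries biological replicates without naming the animals or pools behind them, so that p-values measure the spread between these libraries.

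The unfolded protein response is switched on when unfolded proteins accumulate in the endoplasmic reticulum (ER). Its sensors in the ER membrane are the kinase PERK (gene Eif2ak3), the kinase and endonuclease IRE1 (Ern1) and the transcription factor precursor ATF6. PERK phosphorylates the translation initiation factor eIF2 and thereby favours translation of ATF4, IRE1 splices the Xbp1 transcript, and cleaved ATF6 enters the nucleus. Myelinating oligodendrocytes make large amounts of membrane protein and lipid in the ER, and this response is known from disorders of myelin. Counts per gene give transcript amounts only, and neither splicing of Xbp1 nor phosphorylation, cleavage or translation was measured.

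Promoter sequences are shown for 4 genes whose promoters hold elements through which the pathway is known to act or, for Eif2ak3, the gene with the clearest difference between the groups. They come from RefSeq on build GRCm38.p6, span 250 bases before to 50 bases after the annotated start, and were at hand for 9 of the 10 genes. Capitals mark the ER stress response element in Hspa5 (CCAAT and CCACG separated by 9 bases), every CCAAT box in Eif2ak3 (ATTGG on the other strand) and the C/EBP-ATF element in Trib3 and Chac1 (TGATGNAA or its reverse complement TTNCATCA). The strand is plus for Hspa5 (chr2:34771840-34772139), Eif2ak3 (chr6:70844265-70844564) and Chac1 (chr2:119350992-119351291) and minus for Trib3 (chr2:152344011-152344310).
Hspa5: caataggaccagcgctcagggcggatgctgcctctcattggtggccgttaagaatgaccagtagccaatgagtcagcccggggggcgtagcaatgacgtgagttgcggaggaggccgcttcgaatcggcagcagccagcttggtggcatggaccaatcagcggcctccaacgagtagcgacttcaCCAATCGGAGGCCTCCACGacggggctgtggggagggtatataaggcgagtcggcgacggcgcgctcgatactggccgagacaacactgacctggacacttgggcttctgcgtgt
Eif2ak3: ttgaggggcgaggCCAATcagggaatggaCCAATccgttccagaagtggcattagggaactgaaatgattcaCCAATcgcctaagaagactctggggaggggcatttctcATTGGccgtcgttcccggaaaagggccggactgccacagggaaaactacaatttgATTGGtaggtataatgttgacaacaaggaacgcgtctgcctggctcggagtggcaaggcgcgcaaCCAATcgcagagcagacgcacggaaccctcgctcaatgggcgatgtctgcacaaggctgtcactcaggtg
Trib3: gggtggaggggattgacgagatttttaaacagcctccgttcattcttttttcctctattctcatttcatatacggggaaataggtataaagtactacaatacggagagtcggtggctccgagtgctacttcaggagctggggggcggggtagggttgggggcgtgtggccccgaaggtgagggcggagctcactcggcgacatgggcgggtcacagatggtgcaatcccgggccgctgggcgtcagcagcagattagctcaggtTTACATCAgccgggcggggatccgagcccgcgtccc
Chac1: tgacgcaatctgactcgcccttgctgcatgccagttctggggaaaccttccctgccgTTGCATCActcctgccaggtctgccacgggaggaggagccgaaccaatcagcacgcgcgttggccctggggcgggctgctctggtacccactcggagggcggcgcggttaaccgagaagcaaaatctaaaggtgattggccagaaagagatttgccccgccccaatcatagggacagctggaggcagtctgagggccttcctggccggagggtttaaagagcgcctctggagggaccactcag

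Searched on both strands, the ER stress response element was present once in Hspa5, with its first base 65 bases before the start, and in none of the other 8 promoters. Over 32851 RefSeq promoters of the same length, 39 held it, or 0.119%. Its CCAAT part is also counted as a CCAAT box. The Eif2ak3 promoter held 6 CCAAT boxes, a number reached or passed by 26 promoters (0.0791%), whereas 37.4% of all promoters held at least 1. The cutoff of 6 was the count of this gene itself, so the share is a description and not a test. Hspa5 held 4 CCAAT boxes, Chac1 3, Atf4 2 and Ddit3 1. The C/EBP-ATF element was found in Trib3 and Chac1 among the 9 genes and in 3.97% of all promoters. Its first base lay 193 bases before the start in Chac1 and at base 15 after the start in Trib3. Ppp1r15a held the cAMP response element TGACGTCA, as did 1.79% of all promoters. Hexamers of the kind bound by Klf proteins (ACNCCC or CCNCCC, with A, G or T at N and matches allowed to overlap) numbered 9 in Ern1, 7 in Trib3, 4 in Chac1, 3 in Hspa5, 2 in Atf4, 1 each in Ddit3 and Eif2ak3 and 0 in Xbp1 and Ppp1r15a. At least 1 such hexamer was present in 76.8% of all promoters, with a median of 2. These matches describe letters in the sequence and were not tested for binding.

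Library totals over all genes ran from 24507471 to 59596479 counts, and a count of 0 would allow up to 3 counts. The values below are normalised counts, which are counts scaled to a common library size by edgeR's TMM factors. Klf13 fell from 11338 ± 645 normalised counts (SD, n = 4) to 879.7 ± 79.8 (SD, n = 3), or 7.76% of the control level, with a log2 fold change of -3.69 (SE 0.09, adjusted p = 6.77e-06 in edgeR's quasi-likelihood test). The summed counts of 9 oligodendrocyte markers ranged from 1068555 to 1247144 in wildtype and from 348866 to 394038 in the knockouts, so that the labelled cell type was present in all libraries. Sums were higher in the knockout for 10 astrocyte markers (153319 to 173726 against 228658 to 259906) and 10 neuron markers (22693 to 31144 against 46580 to 56860). The sum of 7 precursor markers was also higher (140980 to 149466 against 176960 to 179258). Taken singly, 8 astrocyte, 9 neuron and 2 precursor markers were called higher by edgeR, and 0 lower. The 2 precursor markers were Ptprz1 and Vcan (log2 fold changes 0.33 and 0.50). Pdgfra (0.07) and Cspg4 (0.14) were among those not called, and C1ql1 (-0.25) was the only 1 below 0. Of the astrocyte markers, S100b (-0.54) and Fgfr3 (-0.22) were below 0 and not called. The 9 fibroblast and mural cell markers summed to 23211, 18005, 77024 and 61729 in control replicates 1 to 4, but only to 13274, 8025 and 18741 in the knockouts. The 10 microglia markers reached 86626 in control replicate 3 against 18822 to 22640 in the other controls and 18724 to 39723 in the knockouts. The 7 endothelial markers summed to 1645 to 3006 in wildtype and to 1309 to 1634 in the knockouts. None of the markers in these lists was at 0 in all libraries. In bulk RNA, fewer cells of a type and less RNA per cell cannot be told apart, and the part of this shift in cell type markers in the results below was not tested.

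All 10 genes passed the filter on low counts, which left 18352 genes for the test. Transcripts of 2 of the 10, the sensors Eif2ak3 and Atf6, fell in the knockout at the threshold of 0.05 for the adjusted p, while no member rose. Among all genes tested, 12.2% were lower and 11.6% were higher at this threshold. At an unadjusted p under 0.05 in edgeR's quasi-likelihood test, 4 members were lower and 0 were higher, beside 18.4% and 18.2% of all genes. DESeq2's Wald test called 3 members lower and 0 higher, beside 12.2% and 10.5% of the 21775 genes to which it gave an adjusted p. No member was past the additional threshold of an absolute log2 fold change of 1 in edgeR, a class that held 3.08% of all genes on the lower and 3.97% on the higher side. Trib3 was past this fold at an unadjusted p under 0.05, as were 3.87% of all genes on the lower side, and with DESeq2, as were 3.29%. The knockout libraries lay below all control libraries in 4 members (Eif2ak3, Atf6, Trib3 and Chac1) and above them in 0, compared with 18.0% and 18.3% of all genes. The log2 fold change was below 0 for 10 of 10 members, with a median of -0.15 against -0.00 over all genes. These 10 signs held with DESeq2's size factors, with upper quartile factors and with library totals, but that of Xbp1 turned once the share of ribosomal RNA was made a covariate and those of Hspa5, Xbp1 and Atf4 turned when 1 control library was left out.

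**Figure D1:**
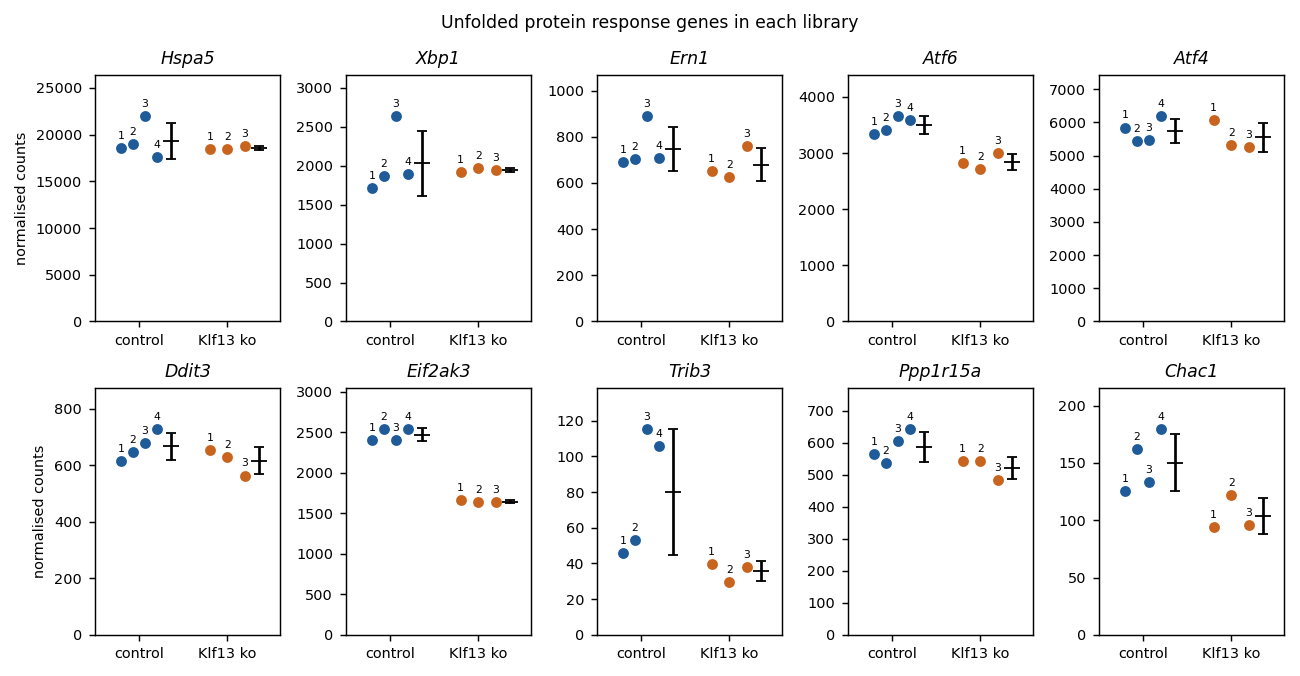
Normalised counts of the 10 unfolded protein response genes in 4 control (blue) and 3 Klf13 knockout libraries (orange), where each point is a library labelled with its replicate number and the bar beside it gives the mean and SD. The knockout points lie below all control points for Eif2ak3, Atf6, Trib3 and Chac1 and overlap with them for the other 6 genes.

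Of the sensors, Eif2ak3 encodes PERK, the ER kinase that phosphorylates eIF2. It lies on chromosome 6 of GRCm38 from 70844515 to 70905245. Its normalised counts were 2398, 2540, 2405 and 2539 in control replicates 1 to 4, against 1663, 1633 and 1636 in knockout replicates 1 to 3. The groups were separated by a gap several times wider than the range within either of them. The mean fell from 2470 ± 79.6 (SD, n = 4) to 1644 ± 16.4 (SD, n = 3), which is 66.6% of the control level. This gave a log2 fold change of -0.59 (SE 0.05, 95% confidence interval -0.71 to -0.47, adjusted p = 4.26e-04 in edgeR's quasi-likelihood test). With any 1 library left out, it stayed between -0.60 and -0.55, with an adjusted p of at most 0.00507. Eif2ak3 shares 485 exon bases, or 8.05% of its exon length, with the antisense gene Gm43292, which held only 78 counts over all libraries against 14563 for Eif2ak3.

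Atf6 encodes the membrane-bound transcription factor that is released by cleavage under ER stress. It lies on chromosome 1 from 170704674 to 170867771. Normalised counts of Atf6 were 3339, 3403, 3666 and 3596 in wildtype and 2818, 2719 and 2995 in the knockouts, so that the lowest control exceeded the highest knockout. The mean fell from 3501 ± 155 (SD, n = 4) to 2844 ± 140 (SD, n = 3), or 81.2% of the control level, with a log2 fold change of -0.30 (SE 0.06, 95% confidence interval -0.44 to -0.16, adjusted p = 0.0119 in edgeR's quasi-likelihood test). This call was lost without knockout replicate 1 (log2 fold change -0.28, adjusted p = 0.0684), without knockout replicate 2 (-0.27, adjusted p = 0.0504) and with control replicates 1 and 2 only (-0.25, adjusted p = 0.0584). Over all genes, the number called lower also went from 2246 to 1254, 1317 and 1489 in these fits, in the same order.

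Ern1, which encodes IRE1 and lies on chromosome 11 from 106394650 to 106487852, was at 691.3, 704.9, 891.6 and 706.7 normalised counts in wildtype and at 651.8, 625.5 and 760.9 in the knockouts. Control replicate 3 and knockout replicate 3 were the highest library of their group, and the groups overlapped. These were also the libraries with the highest sum of microglia markers in their group, and the part of microglia in the Ern1 level was not tested. Its log2 fold change was -0.14 (SE 0.12, 95% confidence interval -0.42 to 0.14, adjusted p = 0.464 in edgeR's quasi-likelihood test). The log2 difference between knockout and control replicates of the same number was -0.53, -0.64 and -0.56 for Eif2ak3, -0.25, -0.32 and -0.29 for Atf6 and -0.09, -0.17 and -0.23 for Ern1.

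Among the transcription factors, Xbp1 is the target of IRE1 splicing and lies on chromosome 11 from 5520659 to 5525893. It had 1713, 1871, 2643 and 1889 normalised counts in wildtype and 1921, 1971 and 1945 in the knockouts. Control replicate 3 stood above all other libraries, and the knockouts lay within the range of the controls. As for Ern1, this was the library with the highest sum of microglia markers (86626), and the part of microglia in the Xbp1 level was not tested. Its log2 fold change of -0.06 (SE 0.14, 95% confidence interval -0.40 to 0.28, adjusted p = 0.802 in edgeR's quasi-likelihood test) turned to 0.09 without control replicate 3.

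Atf4, whose product drives the transcriptional arm downstream of eIF2 phosphorylation, lies on chromosome 15 from 80255184 to 80257540. Its normalised counts were 5848, 5431, 5465 and 6205 in wildtype and 6064, 5317 and 5263 in the knockouts, so that knockout replicate 1 lay within the control range and the other knockouts just below it. Atf4 had a log2 fold change of -0.05 (SE 0.08, 95% confidence interval -0.23 to 0.13, adjusted p = 0.691 in edgeR's quasi-likelihood test), which turned to 0.01 without control replicate 4.

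Ddit3 encodes CHOP, a transcription factor linked to cell death after prolonged ER stress, and lies on chromosome 10 from 127290774 to 127296288. It had 614.3, 646.6, 677.8 and 728.2 normalised counts in wildtype and 655.4, 628.3 and 563.6 in the knockouts. Only knockout replicate 3 lay below the controls. The log2 fold change was -0.12 (SE 0.09, 95% confidence interval -0.33 to 0.10, adjusted p = 0.423 in edgeR's quasi-likelihood test). Ddit3 shares 68 exon bases, 3.97% of its exon length, with Mars on the other strand, which held 21067 counts over all libraries against 4486 for Ddit3, and it is not stated whether counting used the strand.

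Of the targets and effectors, Hspa5 encodes BiP, the main ER chaperone of the Hsp70 family, and lies on chromosome 2 from 34771970 to 34777547. It had 18559, 18965, 22034 and 17619 normalised counts in wildtype and 18453, 18478 and 18778 in the knockouts. The knockouts differed from one another by less than the controls and lay within their range. The log2 fold change was -0.06 (SE 0.08, 95% confidence interval -0.25 to 0.13, adjusted p = 0.678 in edgeR's quasi-likelihood test). Its value was 0.01 without control replicate 3, which had the highest count of Hspa5 and the highest sum of microglia markers (86626). The part of microglia in the Hspa5 level was not tested.

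Trib3 encodes a pseudokinase induced through ATF4 and CHOP and lies on chromosome 2 from 152337422 to 152344032. It had 45.9, 53.3, 115.4 and 105.8 normalised counts in wildtype and 39.7, 29.6 and 38.1 in the knockouts. The knockouts lay below all controls, but control replicates 1 and 2 were much closer to them than control replicates 3 and 4. Control replicates 3 and 4 were the libraries with the highest sums of fibroblast and mural cell markers (77024 and 61729), and the part of such cells in the Trib3 level was not tested. The mean was 80.1 ± 35.6 (SD, n = 4) in wildtype and 35.8 ± 5.46 (SD, n = 3) in the knockouts. The log2 fold change of -1.18 (SE 0.38, 95% confidence interval -2.07 to -0.29) did not pass the test (adjusted p = 0.0613 in edgeR's quasi-likelihood test). It did pass with DESeq2's Wald test (-1.19, adjusted p = 0.016) and without control replicate 1 (-1.35, adjusted p = 0.0401), and it was -0.49 (adjusted p = 0.291) with control replicates 1 and 2 only. All libraries together held 416 counts of Trib3, the fewest of the 10 genes.

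Chac1, a glutathione-degrading enzyme and another target of this arm, lies on chromosome 2 from 119351229 to 119354381. It had 125.6, 161.9, 133.7 and 179.7 normalised counts in wildtype and 93.9, 121.7 and 96.0 in the knockouts. The highest knockout was just below the lowest control. The mean was 150.2 ± 25.1 (SD, n = 4) against 103.8 ± 15.5 (SD, n = 3), and the log2 fold change of -0.53 (SE 0.19, 95% confidence interval -0.96 to -0.10) did not pass the test (adjusted p = 0.0782 in edgeR's quasi-likelihood test). Knockout against control replicates of the same number differed by -0.42, -0.41 and -0.48 on the log2 scale for Chac1 and by -0.21, -0.85 and -1.60 for Trib3.

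Ppp1r15a encodes GADD34, which directs a phosphatase to eIF2 and so ends the block of translation. It lies on chromosome 7 from 45522916 to 45526268, the only member on the chromosome of Klf13, at a distance of 18.4 Mb. It had 565.7, 537.0, 604.7 and 643.1 normalised counts in wildtype and 541.6, 543.0 and 482.9 in the knockouts. Knockout replicates 1 and 2 lay within the control range and knockout replicate 3 below it. For Ppp1r15a, the log2 fold change was -0.17 (SE 0.10, 95% confidence interval -0.39 to 0.05, adjusted p = 0.247 in edgeR's quasi-likelihood test).

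**Figure D2:**
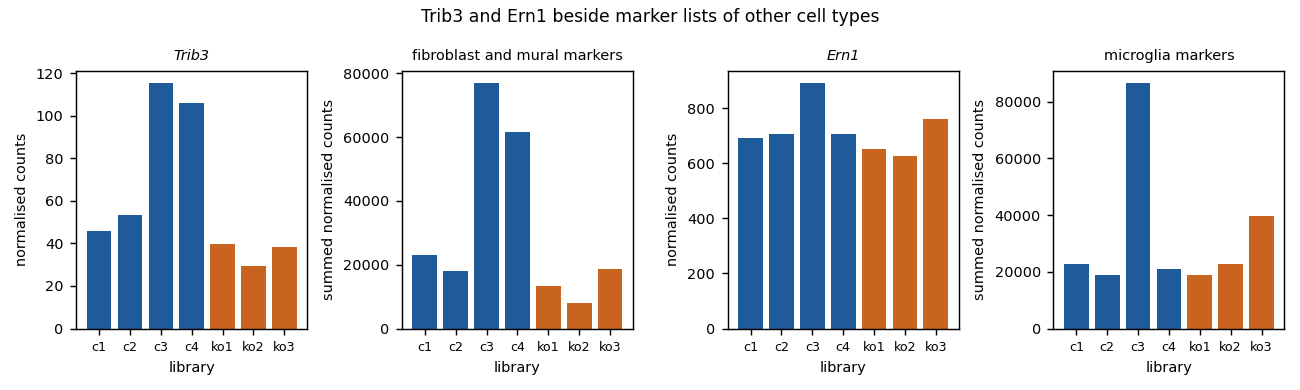
Normalised counts of Trib3 and Ern1 and summed normalised counts of 9 fibroblast and mural cell markers and 10 microglia markers in each library (blue, control replicates c1 to c4, and orange, knockout replicates ko1 to ko3). Trib3 and the fibroblast and mural sum are highest in control replicates 3 and 4, and Ern1 and the microglia sum are highest in control replicate 3.

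Divided by exon length, the levels of the 10 transcripts spanned a wide range. In the controls Hspa5 led with 4562 normalised counts per kb, followed by Atf4 with 3328 and Xbp1 with 624.7, and the libraries of these genes did not overlap with those of the next gene in the order. Eif2ak3 (410.0 per kb), Ddit3 (389.2) and Atf6 (379.3) overlapped with their neighbours and could not be put in an order. Ppp1r15a followed with 200.1 per kb, Chac1 and Ern1 overlapped at 91.8 and 91.6, and Trib3 was lowest at 37.7. In the knockouts no gene overlapped with the next in the order, and Ddit3 (359.5 per kb), Atf6 (308.1) and Eif2ak3 (272.8) followed each other, as did Ern1 (83.1) and Chac1 (63.4).

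**Figure D3:**
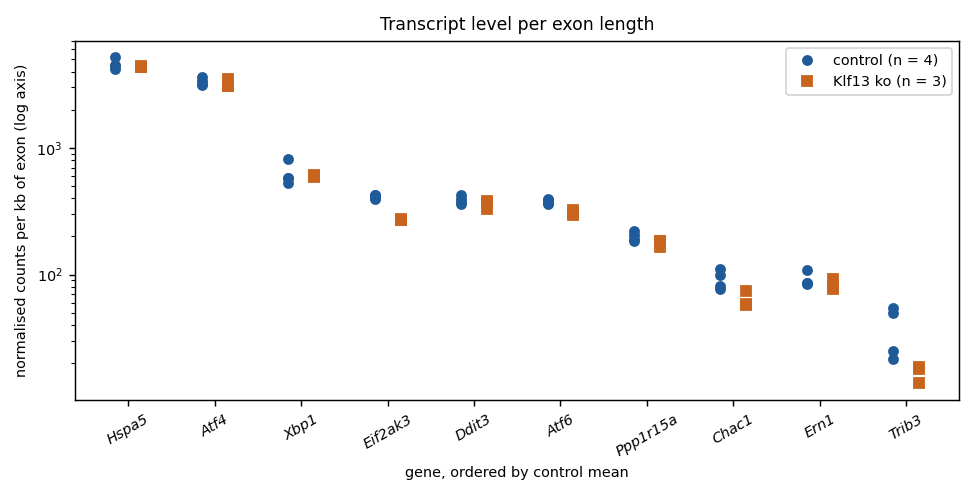
Normalised counts per kb of exon on a log axis for the 10 genes in 4 control (circles) and 3 Klf13 knockout libraries (squares), ordered by the control mean. Hspa5 and Atf4 lie far above the others at 4562 and 3328 in the controls, and the knockout squares of Eif2ak3 lie apart from its control circles.

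For Hspa5, Xbp1, Atf4 and Ddit3, which did not pass the test, the genes with the most similar course over the 7 libraries were sought among 117 genes of the pathway. Likeness was measured as the root mean square difference of log2 normalised counts, each centred on its control mean. Closest to Hspa5 were Bak1 (0.036) and Rars (0.055), and closest to Xbp1 were Calr (0.084) and Hspa5 (0.107). Atf4 was most like Psph (0.063) and Eif2b5 (0.074), and Ddit3 was most like Ppp1r15a (0.057) and Eif2ak1 (0.079). Some gene is closest in any such search, and whether the courses are shared was not tested.

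A further 110 genes that work with these members were arranged in 7 lists, and 108 of them could be tested. Of these, 28 fell and 3 rose in the knockout at the same adjusted p threshold, at which 12.2% of all genes were lower and 11.6% higher. The lists were chosen with earlier results of these data known, so the shares given for them are descriptions and not tests. Medians of the log2 fold change were below 0 in all 7 lists, from -0.25 in the aminoacyl-tRNA synthetases to -0.08 in the cell death genes. Many of these calls were lost without 1 library or under another setting, and those values stand beside the genes and counts they change. Leaving out 1 library also lowered the number of genes called lower over all genes, from 2246 to between 1254 and 2032.

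Among 18 ER chaperones and folding enzymes, 5 fell and 0 rose (0 higher at an unadjusted p under 0.05 in edgeR and 0 with DESeq2), with a median of -0.15. The share that fell was 27.8%, compared with 12.2% of all genes. Ero1l, an oxidase that recharges protein disulfide isomerases, fell to 51.4% of the control level (log2 fold change -0.96, adjusted p = 0.00296 in edgeR's quasi-likelihood test). The cochaperones of BiP Dnajc3 (-0.32, adjusted p = 0.0138) and Dnajb11 (-0.34, adjusted p = 0.0199) fell less, and like the call of Atf6 theirs was lost without knockout replicate 1 (adjusted p = 0.0749 and 0.079). Dnajc3 was also lost without control replicate 4 (0.0508) or knockout replicate 2 (0.0546) and Dnajb11 without knockout replicate 3 (0.0699) or with library totals (0.0906), and with control replicates 1 and 2 only both were lost (0.061 and 0.0647). The genes of the list with the highest normalised counts, not divided by length, were the lectin chaperones Calr and Canx, with log2 fold changes of 0.01 (adjusted p = 0.973) and -0.16 (adjusted p = 0.0793, and 0.0365 with DESeq2). The count of 5 became 1 without knockout replicate 1, 2 without control replicate 4 or knockout replicate 2 or 3, and 2 with library totals or with control replicates 1 and 2 only. Without control replicate 3, 1 gene of the list rose.

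Among 16 genes of ER-associated degradation, which sends misfolded proteins to the proteasome, 4 fell and 0 rose (0 higher at an unadjusted p under 0.05 in edgeR and 0 with DESeq2), with a median of -0.18. The share that fell was 25%, compared with 12.2% of all genes. The log2 fold changes were -0.27 for Derl1 (adjusted p = 0.0125), -0.39 for Selenos (adjusted p = 0.014) and -0.26 for the ubiquitin ligase Syvn1 (adjusted p = 0.0163). The abundant Sel1l, a partner of Syvn1, had a log2 fold change of -0.18 (adjusted p = 0.081). Calls were lost without knockout replicate 1 for Derl1 and Syvn1 (adjusted p = 0.0759 and 0.0921), without knockout replicate 2 for Derl1 and Selenos (0.0522 and 0.0582), without knockout replicate 3 for Selenos (0.0553) and without control replicate 1 for Syvn1 (0.0585). Syvn1 was also lost with library totals (0.0866), and Derl1, Selenos and Syvn1 were lost with control replicates 1 and 2 only (0.0551, 0.0688 and 0.0558). The count was 1 without knockout replicate 1 or 2, 2 without control replicate 1 or knockout replicate 3 or with library totals, and 0 with control replicates 1 and 2 only.

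Of 25 tested targets of ATF4 and genes of amino acid supply, 5 fell and 2 rose, with a median of -0.09. These are 20% and 8% of the list, beside 12.2% and 11.6% of all genes. Vldlr, a lipoprotein receptor, fell to 65.2% of the control level (log2 fold change -0.62, adjusted p = 4.16e-04 in edgeR's quasi-likelihood test), the mitochondrial folate enzyme Mthfd2 to 65.0% (-0.62, adjusted p = 0.00334) and the arginine and lysine transporter Slc7a1 to 75.8% (-0.40, adjusted p = 0.00475). Both genes that rose are named after their values were seen: Phgdh, the first enzyme of serine synthesis (0.73, adjusted p = 0.00801), and Slc7a11, the cystine transporter (1.04, adjusted p = 0.0112). The abundant Psat1 and Slc3a2 had log2 fold changes of -0.03 (adjusted p = 0.731) and -0.42 (adjusted p = 0.0623), and Slc3a2 passed without control replicate 4 (-0.48, adjusted p = 0.0451), with upper quartile factors (0.0448), with the ribosomal RNA covariate (0.0361), with the replicate block (0.015) and with DESeq2 (0.0432). Of the 25 genes, 18 did not pass the test, Psat1 and Slc3a2 among them.

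The 14 aminoacyl-tRNA synthetases, which load tRNAs with amino acids and are in part induced by ATF4, held 8 genes that fell and 0 that rose (1 higher at an unadjusted p under 0.05 in edgeR, 0 with DESeq2). The share that fell was 57.1%, compared with 12.2% of all genes. Iars fell by 0.49 on the log2 scale (adjusted p = 0.00128 in edgeR's quasi-likelihood test), Eprs by 0.38 (adjusted p = 0.00353) and Gars by 0.30 (adjusted p = 0.00395). Aars had a log2 fold change of -0.23 (adjusted p = 0.0547) and passed without knockout replicate 2 (-0.30, adjusted p = 0.048), with at least 10 counts in every library (0.0454), with the ribosomal RNA covariate (0.0361) and with library sizes without ribosomal and mitochondrial RNA (0.0467). The count was 4 without knockout replicate 1 and 5 with library totals.

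In the list of eIF2 phosphorylation and exchange, 2 of 12 genes fell and 0 rose (0 higher at an unadjusted p under 0.05 in edgeR and 0 with DESeq2). The 2 genes are 16.7% of the list, near the 12.2% of all genes that were lower. Ppp1r15b, the constitutive relative of Ppp1r15a, had a log2 fold change of -0.32 (adjusted p = 0.0132 in edgeR's quasi-likelihood test), which missed the threshold without knockout replicate 3 (adjusted p = 0.0515), with upper quartile factors (0.0505) and with control replicates 1 and 2 only (0.0541). The eIF2 subunit gene Eif2s2 had -0.19 (adjusted p = 0.0329) and lost its call without any of the libraries except control replicate 2, with adjusted p-values of 0.0581 to 0.169. Its adjusted p was also above the threshold with library totals (0.142), upper quartile factors (0.116), no filter (0.0897), the replicate block (0.0881) and control replicates 1 and 2 only (0.123). Eif2s3x, another subunit gene, had -0.08 (adjusted p = 0.465). The count was 0 without knockout replicate 3, with upper quartile factors and with control replicates 1 and 2 only. It was 1 with library totals, without a filter, with the replicate block and without any other library except control replicate 2, and 1 gene rose with the ribosomal RNA covariate.

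Among 12 tested genes of stress sensing and proteolytic activation, 3 fell and 0 rose (1 higher at an unadjusted p under 0.05 in edgeR, 0 with DESeq2). The share that fell was 25%, compared with 12.2% of all genes. The genes that fell were the ER membrane protein gene Tmem33 (log2 fold change -0.32, adjusted p = 0.00742 in edgeR's quasi-likelihood test), Creb3l2, a transcription factor activated by cleavage like ATF6 (-0.49, adjusted p = 0.0214), and the translocon gene Sec63 (-0.20, adjusted p = 0.0246). Only the call of Tmem33 held without each of the 7 libraries. Creb3l2 was lost without control replicate 1 or knockout replicate 1, 2 or 3 (adjusted p = 0.0528, 0.0821, 0.082 and 0.0602), and Sec63 without control replicate 2 or 4 or knockout replicate 1, 2 or 3 (0.0577, 0.0647, 0.103, 0.0887 and 0.0712). Sec63 was also lost with library totals (0.132), upper quartile factors (0.0795), no filter (0.0698), the replicate block (0.0708) and control replicates 1 and 2 only (0.103). The count was 1 without any 1 of the knockout libraries.

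In the list of ER stress cell death, 1 of 11 genes fell and 1 rose, or 9.09% in each direction, a share below the 12.2% and 11.6% of all genes. Pmaip1, which encodes the BH3-only protein NOXA, fell from 654.4 ± 122 normalised counts (SD, n = 4) to 210.3 ± 50.1 (SD, n = 3), for a log2 fold change of -1.63 (adjusted p = 0.00238 in edgeR's quasi-likelihood test). Dapk1, a death-associated kinase, rose by 0.93 (adjusted p = 0.0165) and was lost without knockout replicate 2 (0.85, adjusted p = 0.0662). The abundant Tmbim6 and Bax had log2 fold changes of -0.10 (adjusted p = 0.316) and -0.02 (adjusted p = 0.943). The number of genes that rose was 3 without control replicate 3 and with control replicates 1 and 2 only, and 0 without knockout replicate 2.

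**Figure D4:**
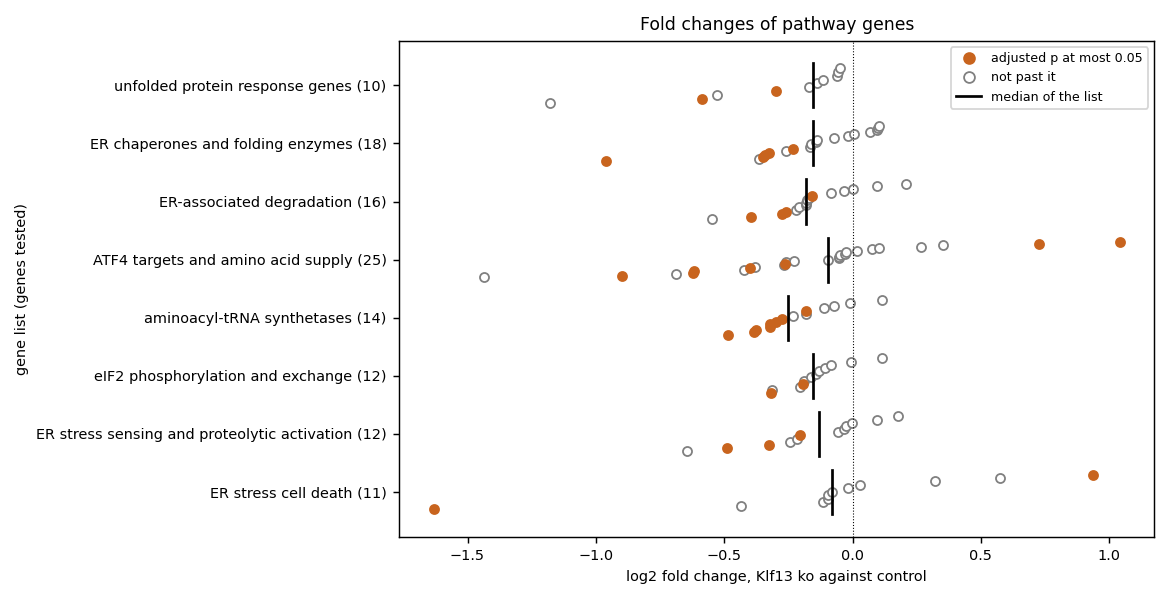
Log2 fold change of Klf13 knockout against control for the 10 unfolded protein response genes and for each tested gene of 7 further lists, where filled points were past 0.05 for the adjusted p by edgeR and black lines mark the median of a list. Filled points lie mostly to the left of 0, and the 3 on the right are Phgdh, Slc7a11 and Dapk1.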

How the data were processed

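Per the labels and the study's methods, the authors trimmed reads with Trimmomatic 0.36, mapped them with STAR 2.5.2b to the mouse genome (GRCm38) and deposited counts of unique hits within exons per gene, made with Subread 1.5.2, as whole numbers without normalization. The annotation release and the strand setting are not given in the sources used here. Of 49315 identifiers, 48970 had a symbol. Counts were tested in R 4.3.3 with edgeR 4.0.16 (filterByExpr by group, TMM factors, robust quasi-likelihood fit with the group as only term, two-sided), with Benjamini-Hochberg adjustment across 18352 genes. Normalised counts are counts rescaled to the mean TMM-scaled library size of 43945387. DESeq2 1.42.0 was an alternative. The code was tested on simulated data, where the share of changed genes recovered missed the limit set at first, and the limit was then lowered. Between 6.03% and 17.9% of counts fell on Gm42418, Gm23935 and Lars2, where ribosomal RNA reads collect. Counting error and limits for a count of 0 do not cover the spread between cultures. The members and lists were chosen with earlier results of these data known. Beside all members, the text names from each pathway list the 2 genes with the highest mean normalised count, up to 3 with the smallest p past the adjusted p threshold of 0.05, and for Hspa5, Xbp1, Atf4 and Ddit3 the 2 genes most alike. The values of 1 gene taken by this rule are not reported here. The fit with control replicates 1 and 2 only was added after the markers of the libraries were seen.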

Additional observations from a re-analysis of the deposited data

Results flagged for a closer look

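Among the 39 genes tested, 3 had a control library that stood apart from the other 3 by Dixon's criterion, which chance meets in about 1 of 20 groups of 4. Ern1 was at 891.6 normalised counts in control replicate 3, against 691.3 to 706.7 in the other controls. Sec63 was at 5883 in control replicate 1, against 6295 to 6378. Dapk1 was at 1197 in control replicate 4, against 2025 to 2139.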

How the results depend on the processing

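The results were recomputed under 17 alternatives, 7 of which left out 1 library each. Eif2ak3 was past the threshold in all of them, Hspa5, Xbp1, Ern1, Atf4, Ddit3, Ppp1r15a and Chac1 in none, and calls of Atf6 and Trib3 changed as given above. Over the alternatives other than leaving out a library, log2 fold changes ranged from -0.61 to -0.54 for Eif2ak3, from -0.32 to -0.25 for Atf6 and from -1.24 to -0.49 for Trib3. Of the members' values under these alternatives, 160 kept direction and call, 3 lost the call, 2 gained it and 5 turned in sign, none of these called: Hspa5 without control replicate 3 (0.013, range over left-out libraries -0.076 to 0.013), Xbp1 with the ribosomal RNA share as covariate (0.022), without control replicate 3 (0.091, range -0.119 to 0.091) and with control replicates 1 and 2 only (0.115), and Atf4 without control replicate 4 (0.011, range -0.102 to 0.011). Among uncalled genes of the lists, signs turned around 0 for Calr (-0.034 with the replicate block, -0.017 with library sizes without ribosomal and mitochondrial RNA, -0.006 with DESeq2, and -0.016, -0.006, -0.023, -0.012 and -0.004 without control replicates 1, 2 and 4 and knockout replicates 2 and 3), Psat1 (0.016 with library totals, 0.012 with upper quartile factors, and without 1 library -0.030 to 0.002, the latter without control replicate 1) and Bax (0.031, 0.021, 0.101 and 0.038 with library totals, upper quartile factors, the ribosomal RNA covariate and control replicates 1 and 2 only, and 0.027, 0.027 and 0.112 without control replicates 2 and 3 and knockout replicate 3, range -0.135 to 0.112). The causes were not tested.

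With control replicates 1 and 2 only, the fit lost samples, and 1489 genes were lower and 1177 higher over all genes, 1 member, 2 ER chaperones, 0 degradation genes and 0 eIF2 genes were lower and 3 cell death genes were higher. With library totals, 2 ER chaperones, 2 degradation genes, 5 synthetases and 1 eIF2 gene were lower. The eIF2 count was 0 with upper quartile factors and 1 without a filter, and 1 eIF2 gene was higher with the ribosomal RNA covariate. DESeq2 called 1 member past the fold threshold. Leaving out 1 library gave 1254 to 2032 lower and 850 to 1843 higher genes over all genes (lowest without knockout replicates 1 and 2), 1 to 3 members lower, 0 to 1 past the fold threshold, 1 to 4 ER chaperones lower and 0 to 1 higher, 1 to 3 degradation genes, 4 to 8 synthetases, 0 to 2 eIF2 genes and 1 to 3 sensing genes lower, and 0 to 3 cell death genes higher.

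Whether the replicate numbers pair the libraries is borderline. Deviations from the group means of same-numbered libraries correlated over genes at 0.099, 0.426 and 0.126 on log2 normalised counts with an offset of 0.5, which misses the criterion of more than 0.1 in every pair. They correlated at 0.113, 0.463 and 0.168 on edgeR's log2 CPM with a prior count of 2, which meets it. The second scale was tried after the first had been seen, so the numbers are treated as not shown to pair, and control replicate 1 was in either case not closest to its own number. With the replicate block, 2042 genes were lower and 1741 higher, the same 2 members were lower, and 1 eIF2 gene was lower. Eif2s2 (adjusted p = 0.0881) and Sec63 (0.0708) lost their calls, and Slc3a2 gained one (0.015). No other named gene changed its call under the block.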
